A study of Saccharomyces cerevisiae with 4 samples.

Results

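These 330 regions are the peaks of phosphorylated histone H3 in hydroxyurea-treated yeast at which total H3 was lower than in untreated cells. They were taken from the 630 peaks that the authors called for H3 phosphorylated at threonine 45 (H3T45p) in hydroxyurea. Of those peaks, 595 lay at least 20 kb from both chromosome ends, and the 330 were selected on measured values, as the ones whose mean H3 signal in hydroxyurea was at or below 0.7 of its untreated value. The other 265 inner peaks are used below for comparison.

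The data are chromatin immunoprecipitation with sequencing (ChIP-seq) from budding yeast of the strain BY4741, taken from mid-log cultures in rich medium (YPD). Cells were treated with 200 mM hydroxyurea for 2 h or left untreated, and each condition was sampled with an antibody against H3T45p and one against the C terminus of H3, which binds H3 with or without the phosphate. Each of the 4 groups was 1 library, of 23575911 (H3T45p) and 28688895 (H3) reads in nuclear windows in hydroxyurea, and 25097843 (H3T45p) and 27318717 (H3) in untreated cells. In the titles hydroxyurea libraries carry the number 1 and untreated ones the number 2, so a batch, if these mark one, cannot be told apart from the treatment. With 1 library on each side nothing here has a replicate check, and no p-value is given. The libraries analysed include no input DNA, so the amount of DNA at a region and the amount of H3 on it cannot be told apart.

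Threonine 45 of H3 faces the DNA near the nucleosome's entry and exit sites, and its phosphorylation has been tied to Cdc7, the kinase that fires replication origins. The study behind these libraries concerns that kinase, histones and biosynthesis genes. Hydroxyurea blocks ribonucleotide reductase, the enzyme that supplies deoxynucleotides, so that forks slow down and the S-phase checkpoint is switched on. Nucleosomes are taken off and put back at promoters, in strongly transcribed genes and behind replication forks, and the C-terminal H3 signal follows how much H3 sits on the DNA. The H3T45p signal follows the amount of phosphorylated H3, so H3T45p divided by H3 is a relative level of the mark per H3. Positions are in the files' own coordinates, counted from 1, and regions are not placed on genes because the sources used here do not give the genome build.

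In the regions that lost H3, the H3T45p signal in hydroxyurea stood near the typical level of the genome, while the H3 signal was far under it. Signals are the mean over the 150 bp windows of a region, on the authors' scale. The median of H3T45p was 290 in hydroxyurea (lowest 64.9, highest 2303) and 170 in untreated cells (lowest 25.4, highest 3652). The median of H3 was 64.1 in hydroxyurea (lowest 9.06, highest 616) and 130 in untreated cells (lowest 18.7, highest 1855). Over all nuclear windows the H3T45p medians were 283 in hydroxyurea, against 289 in untreated cells, with H3 medians of 277 and 280. The regions were thus already poor in H3 before treatment in most cases. Untreated H3 lay under the genome median in 266 of the 330 (80.6%, exact binomial 95% interval 75.9 to 84.7%). The other inner peaks were poor in it more often, with 259 of 265 under the genome median (97.7%, 95.1 to 99.2%). Intervals on a ratio of signals cover the counting of reads only, and reads are not independent molecules. Intervals on a share of regions treat regions as separate draws, although all come from the same libraries and 48 of the 330 stand in runs, and cover counting error only.

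**Figure D1:**
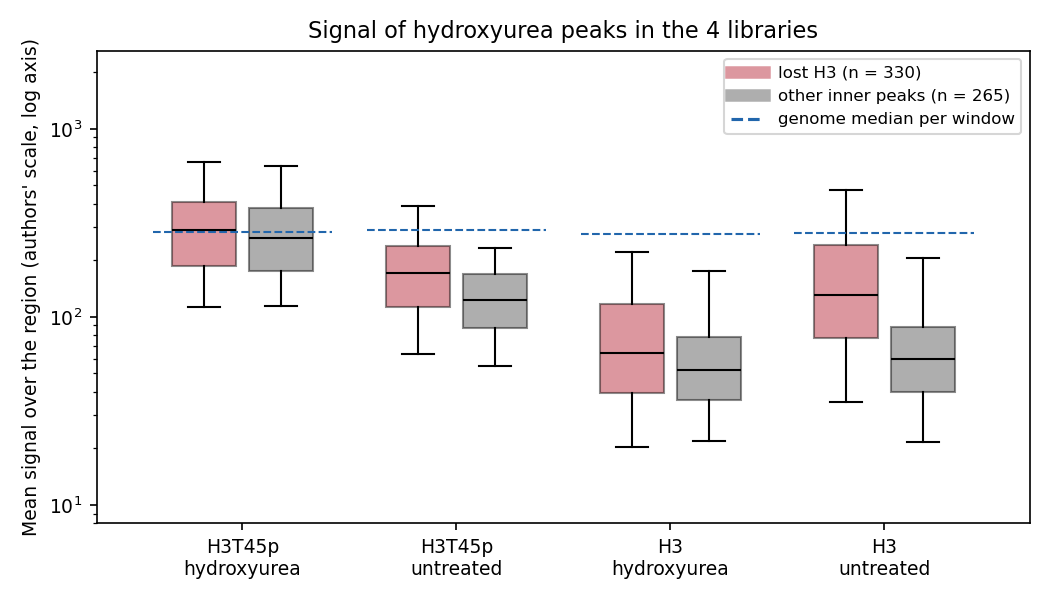
Mean signal over each region (authors' scale, log axis) in the 4 libraries, for the 330 peaks that lost H3 and the other 265 inner peaks. Boxes show quartiles with the median as a line, whiskers the 5th and 95th percentiles, and dashed lines the genome median per window; the 330 regions have a median H3 of 64.1 in hydroxyurea, against 130 in untreated cells, and the other peaks 52.1 and 59.6.

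The H3 ratio, hydroxyurea over untreated, chose these regions and is given as a description. Its median was 0.522 over the 330, and it ran from 0.191 to 0.699. H3 was at or below 0.5 of the untreated value in 135 regions and at or below a ratio of 0.33 in 28. Such a fall was not rare in the genome. A ratio at or below 0.7 was found in 9.31% of single inner windows, and in 8.58% of those outside every hydroxyurea peak. Among the inner peaks the share was 55.5%. Every inner peak had H3T45p of at least 2.11 times H3 in hydroxyurea, so the peak list favours low H3 there. That favours a low H3 ratio in peaks, so nothing is read from their higher share. Of the 6911 inner windows at or below 0.7, 580 (8.39%) lay in these regions and 6273 lay outside every hydroxyurea peak. Within the regions, 580 of 657 windows were themselves at or below 0.7 and 646 were below 1. Among the 185 regions of more than 1 window, every window was at or below 0.7 in 120.

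Depth set how well each ratio was known. The median region held 138.5 H3 reads in hydroxyurea and 233.5 in untreated cells. The 95% interval of the H3 ratio lay wholly at or below 0.7 in 177 regions and reached 1 in 28. The 5 regions just inside the threshold had ratios of 0.697 to 0.699 and the 5 peaks just outside had 0.7005 to 0.703, so the threshold cuts a continuous range. The region at chromosome 15 from 891751 to 891900, just inside, had H3 of 22.7 in hydroxyurea, against 32.5 in untreated cells, with an interval of 0.397 to 1.21. The peak at chromosome 3 from 227851 to 228000, just outside, had 43.5 in hydroxyurea, against 62.0 in untreated cells, with an interval of 0.471 to 1.04.

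The 10 regions with the lowest H3 ratio showed H3 at between 0.191 and 0.280 of its untreated level. Their H3T45p changed less, with ratios of 0.781 to 1.46. At chromosome 10 from 195151 to 195750, the lowest, H3 was 54.4 in hydroxyurea, against 285 in untreated cells, a ratio of 0.191 (95% interval 0.165 to 0.219). H3T45p there was 254 in hydroxyurea, against 295 in untreated cells, a ratio of 0.860 (0.788 to 0.938). The mark was therefore slightly lower on this DNA, while its level per H3 was 4.67 in hydroxyurea, against 1.04 in untreated cells. At chromosome 5 from 298201 to 298500, H3 was 48.9 in hydroxyurea, against 213 in untreated cells, and H3T45p was 187 and 230 in the same order. At chromosome 2 from 135901 to 136200, H3 was 39.0 in hydroxyurea, against 166 in untreated cells, and H3T45p was 270 and 185. These regions differ in H3T45p, which was lower in hydroxyurea at the chromosome 5 region and higher at the chromosome 2 region.

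At chromosome 2 from 341551 to 341850, H3 was 63.0 in hydroxyurea, against 267 in untreated cells, with H3T45p at 262 and 209. At chromosome 7 from 959551 to 959700, H3 was 52.6 and 215, and H3T45p 167 and 188, again for hydroxyurea and untreated cells. Only the first of these had an H3T45p difference beyond counting error, with an interval of 1.10 to 1.43 for the ratio. The region at chromosome 11 from 516751 to 516900 had few reads, with H3 of 13.6 in hydroxyurea, against 60.1 in untreated cells and an interval of 0.119 to 0.403 for the ratio. The remaining 4 were at chromosome 7 from 94801, chromosome 12 from 723001 and from 950101 and chromosome 10 from 119851, with H3 ratios of 0.262, 0.262, 0.271 and 0.280. Over the 10, the H3T45p ratio lay below 1 in 6, and its interval held 1 in 5, lay above it in 3 and below it in 2.

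**Figure D2:**
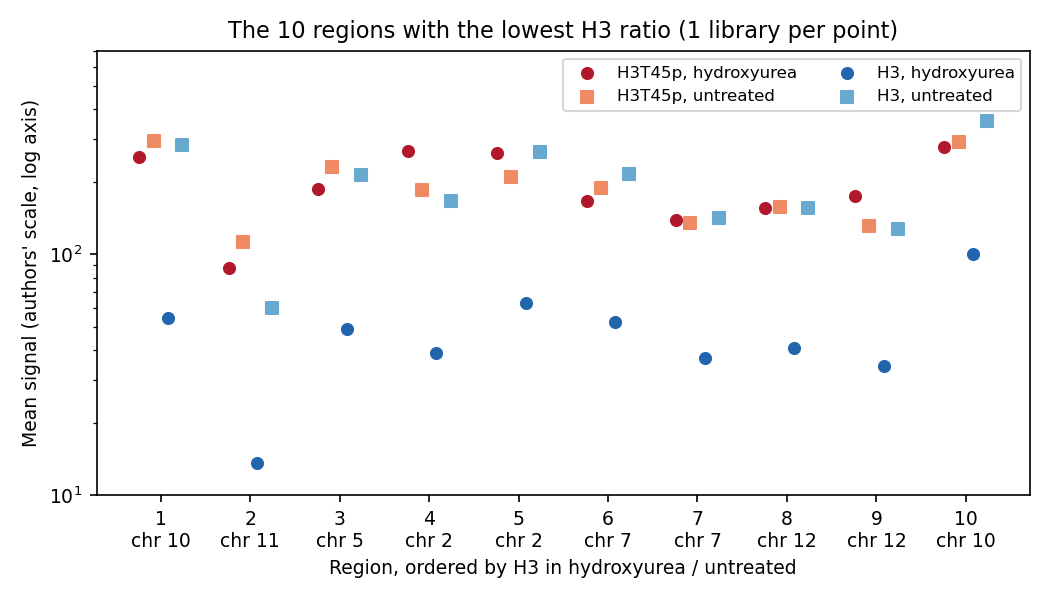
Mean signal (authors' scale, log axis) of the 10 regions with the lowest H3 ratio, 1 point per library, ordered by the ratio and labelled by chromosome. H3 in hydroxyurea is the lowest of the 4 points in every region, from 13.6 to 100.1. The H3T45p points of the conditions lie closer together than the H3 points, with ratios of 0.781 to 1.46.

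Across all 330 regions H3T45p was higher in hydroxyurea in most. The median ratio of H3T45p, hydroxyurea over untreated, was 1.72, from 0.631 to 5.42, and it was 1.5 or more in 215 regions (65.2%), where 7.54% of single inner windows reached that fold. The authors' call of these peaks in hydroxyurea favours high H3T45p there, so nothing is read from this difference. The interval lay above 1 in 276 regions, held 1 in 48 and lay below 1 in 6. H3T45p was lower in hydroxyurea in 20 regions, where 48.2% of inner windows were. Scaled by total reads instead, which shifts this ratio by -0.13 on the log2 scale, 37 regions were below 1 and 175 at 1.5 or more.

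The 20 regions with lower H3T45p were called as peaks although H3T45p on them was not higher in hydroxyurea. Their H3 ratios ran from 0.191 to 0.590 with a median of 0.340, and 5 of them lay on chromosome 12, which holds 36 of all 330. The lowest was at chromosome 12 from 460501 to 460800, with H3T45p of 2303 in hydroxyurea, against 3652 in untreated cells and H3 of 616 and 1855. It also had the most H3 of all 330 regions, and untreated H3 in the windows beside it was 29.1 times the genome median. Chromosome 12 carries the ribosomal DNA, an array of repeats that pile up on few reference copies, but the region was not placed on it. At chromosome 2 from 554701 to 554850, H3T45p was 174 in hydroxyurea, against 234 in untreated cells (ratio 0.744, 0.603 to 0.915) and H3 was 58.0 and 185. At chromosome 12 from 963001 to 963150, H3T45p was 106 in hydroxyurea, against 150 in untreated cells, and H3 was 28.1 and 75.8.

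The deeper the H3 ratio, the smaller was the H3T45p ratio among these regions. In the 62 regions with H3 at or below 0.4 of untreated, the median H3T45p ratio was 1.33. It was 1.64 in the 118 regions with H3 of 0.4 to 0.55, and 1.88 in the 150 regions above 0.55. The level of the mark per H3 in hydroxyurea had medians of 3.78, 3.74 and 4.35 in the same classes. Median untreated H3 was 249, 131 and 96.3 in these classes, an order that the classes favour because untreated H3 is the denominator of the ratio. Their flanks had lost more H3 as well, with median flank ratios of 0.759, 0.815 and 0.857. The Spearman correlation between the H3 and the H3T45p ratio was 0.447 over the 330 regions and 0.0945 over the other 265 inner peaks. The regions share their libraries, and each of the 330 had H3T45p of at least 2.18 times H3 in hydroxyurea, so the correlation is a description.

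**Figure D3:**
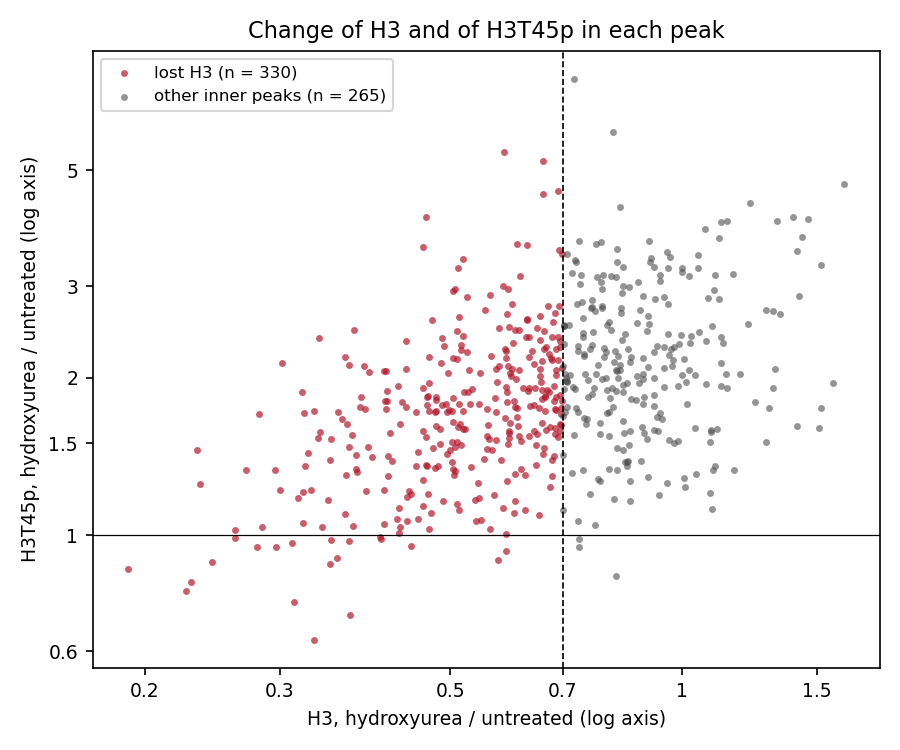
Ratio of H3T45p against ratio of H3, hydroxyurea over untreated (both log axes), for the 330 peaks that lost H3 (left of the dashed line at 0.7) and the other 265 inner peaks. The 62 regions with H3 ratios at or below 0.4 have a median H3T45p ratio of 1.33 (quartiles 1.03 and 1.66), and 310 of the 330 lie above 1.

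The H3 ratio that chose the regions does not use the untreated H3T45p library. Whether the authors' call of the hydroxyurea peaks used that library is not known. In untreated cells, regions with a middling amount of H3 had a median level of the mark per H3 close to that of other DNA with that amount. In untreated cells H3T45p over H3 was 1.18 at the median of the 330 regions, from 0.517 to 5.09, and was below 1 in 94 of them, where 50.5% of inner windows were. Shares of all inner windows here cover windows of any H3 amount and are not matched to the regions, most of which were poor in H3. Among the 164 regions whose untreated H3 lay between 76.8 and 242, the quartiles of the set, the median ratio was 1.17 (quartiles 1.03 and 1.39). Over the 23089 inner windows outside peaks with the same range of H3 it was 1.16 (1.03 and 1.29). The regions, unlike these windows, were chosen by a ratio with untreated H3 as its denominator. That favours a lower untreated H3T45p over H3 in the regions, so equal marking is not read from these medians. The regions with less or more H3 were not compared in this way. A ratio of 2 or more was found in 40 of the 330 regions (12.1%, 8.80 to 16.1%), where 1.2% of single inner windows had one. The other inner peaks had a median untreated ratio of 1.92, and 125 of 265 were at 2 or more (47.2%, 41.0 to 53.4%). Choosing by the H3 ratio favours a high untreated H3 and so a low untreated ratio, which bears on this difference.

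Some of the regions were also peaks in untreated cells. The share of all inner windows under an untreated peak is not given here, so the shares below compare the sets of peaks only. An untreated peak overlapped 20 of the 330 regions by at least 1 bp (6.06%, 3.74 to 9.21%) and 39 of the other 265 inner peaks (14.7%, 10.7 to 19.6%). With an overlap of 50% of both peaks the shares were 3.64% and 11.7%, and with a threshold of 0.6 the share of regions was 3.125%. Untreated H3 was used to choose the regions, and its part in this overlap was not tested. The 20 regions had a median untreated ratio of H3T45p over H3 of 2.70, which the untreated call favours, so nothing is read from it. Their median H3 ratio was 0.658, against 0.516 in the 310 without an untreated peak. Median untreated H3, the denominator, was 92.8 and 132 in the same order, and median H3 in hydroxyurea was 61.1 and 65.2. The untreated call can favour low untreated H3 and so a higher H3 ratio, so nothing is read from this difference. H3T45p was higher in hydroxyurea in all 20, with ratios of 1.39 to 2.75, which the hydroxyurea call favours. At chromosome 5 from 441901 to 442500, H3T45p was 494 in hydroxyurea, against 337 in untreated cells, and H3 was 61.8 and 111. At chromosome 8 from 382801 to 383250, H3T45p was 561 and 306 and H3 was 66.1 and 116, again for hydroxyurea and untreated cells. The mark per H3 before treatment was 3.05 and 2.65 in these regions, again favoured by the untreated call.

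The other named regions of those 20 were taken by width and then position. At chromosome 2 from 45151, chromosome 5 from 270151 and chromosome 7 from 438451 and from 920101, the untreated ratios were 2.91, 1.85, 1.39 and 1.52, and the H3 ratios lay between 0.655 and 0.696. At chromosome 12 from 931801 and chromosome 15 from 216301, the H3 ratios were 0.420 and 0.381, with untreated ratios of 1.65 and 1.02. The regions at chromosome 5 from 140551 and chromosome 15 from 978451 are described with the widest ones.

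A group of 64 regions was rich in H3 before treatment, with untreated H3 above the genome median, against 6 of the other 265 inner peaks. Untreated H3 is the denominator of the ratio that chose the regions, which favours high values among them, so these counts are a description. Their median H3 ratio was 0.435 and their median H3T45p ratio 1.59. In hydroxyurea, H3 was below the genome median in 57 of the 64 and H3T45p above its own in 61. The choice by H3 and the hydroxyurea call favour these counts as well. Their median of H3T45p over H3 in untreated cells was 0.838, under the 1.18 of all 330 regions. Untreated H3 is the denominator of this ratio as well, so taking regions rich in it favours a low value. At chromosome 3 from 228601 to 228900, H3 was 208 in hydroxyurea, against 617 in untreated cells, and H3T45p was 761 and 319. This was the lowest untreated ratio of all 330 regions, 0.517, and it was 3.65 in hydroxyurea. At chromosome 7 from 271501 to 271650, H3 was 425 in hydroxyurea, against 905 in untreated cells, and H3T45p was 929 and 537. At chromosome 4 from 955351 to 955500, H3 was 257 and 702 and H3T45p 751 and 460, in hydroxyurea and untreated cells. At chromosome 5 from 192001 to 192300, H3 was 308 in hydroxyurea, against 597 in untreated cells, and H3T45p was 896 and 388.

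In these 4 regions H3T45p and H3 moved in opposite directions, with H3T45p ratios of 2.39, 1.73, 1.63 and 2.31. The choice by H3 and the hydroxyurea call both favour this, so it is a description. The region at chromosome 14 from 198451 to 198600 had a deeper loss and a smaller gain, with H3 of 187 in hydroxyurea, against 589 in untreated cells and H3T45p of 500 and 424. Others among the 10 with the most H3 were at chromosome 11 from 68851, chromosome 4 from 1056001 and chromosome 15 from 494401, with H3 ratios of 0.507, 0.519 and 0.466 and H3T45p ratios of 1.47, 1.60 and 1.78.

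Most of the regions were narrow, and their widths were close to those of the other inner peaks. The 330 covered 98.55 kb, and 145 were 1 window wide, 101 were 2, 53 were 3 and 31 were 4 or more (9.39%, 6.47 to 13.1%). Of the other inner peaks 15 of 265 were 4 or more windows wide (5.66%, 3.20 to 9.16%), and both sets had a median width of 300 bp. The widest region was at chromosome 15 from 987301 to 988800. Its H3T45p was 558 in hydroxyurea, against 334 in untreated cells, and its H3 was 127 and 352. H3 was lower in each of its 10 windows, with ratios of 0.245 to 0.485, and H3T45p was higher in each, with ratios of 1.04 to 2.76. The last window had the lowest H3 ratio and the smallest gain, with H3T45p of 335 in hydroxyurea, against 322 in untreated cells.

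The other 5 wide regions, of 900 or 1350 bp, differed in how evenly H3 was lost. At chromosome 12 from 232201 to 233550, H3T45p was 1121 in hydroxyurea, against 620 in untreated cells, and H3 was 387 and 566, with a window range of 0.606 to 0.774 for the H3 ratio. At chromosome 16 from 502351 to 503250, H3 was 69.3 in hydroxyurea, against 230 in untreated cells, and H3T45p was 422 and 198. At chromosome 15 from 978451 to 979350, H3 was 84.6 and 221 and H3T45p was 436 and 238, in hydroxyurea and untreated cells. The chromosome 16 region had the deepest loss of the wide regions, with a ratio of 0.302 (0.271 to 0.335). Its window ratios of H3 ran from 0.236 to 0.789, and H3T45p in the window of lowest H3 was 430 in hydroxyurea, against 516 in untreated cells. At chromosome 5 from 140551 to 141450, H3 was 125 in hydroxyurea, against 192 in untreated cells, with H3T45p at 543 and 217. At chromosome 11 from 354901 to 355800, H3 was 73.1 and 112 and H3T45p 276 and 133, again for hydroxyurea and untreated cells. In both of these regions single windows with little untreated H3 had ratios above 1.

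The H3 loss reached past the edge of the called peak. Flanking windows outside every hydroxyurea peak were not used by the choice of regions. Pooled over the 330 regions, the H3 ratio was 0.476 inside, 0.650 in the first 150 bp beyond the edge, 0.765 from 150 to 300 bp, 0.834 from 300 to 450 bp and 0.859 from 450 to 600 bp. It reached 0.939 from 1200 to 1350 bp and was 0.954 from 3000 to 3150 bp. The change of H3 thus faded over about 1 kb. The H3T45p ratio was 1.72 inside, 1.09 in the first 150 bp, 1.02 from 150 to 300 bp, 1.13 from 1200 to 1350 bp and 1.07 from 3000 to 3150 bp. The peak edge was set by the H3T45p call, so nothing is read from the step of H3T45p at it. Around the other inner peaks H3 was 0.874 inside, 0.890 in the first 150 bp and 1.05 from 1200 to 1350 bp, and H3T45p was 2.40, 1.28 and 1.24 at the same places.

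**Figure D4:**
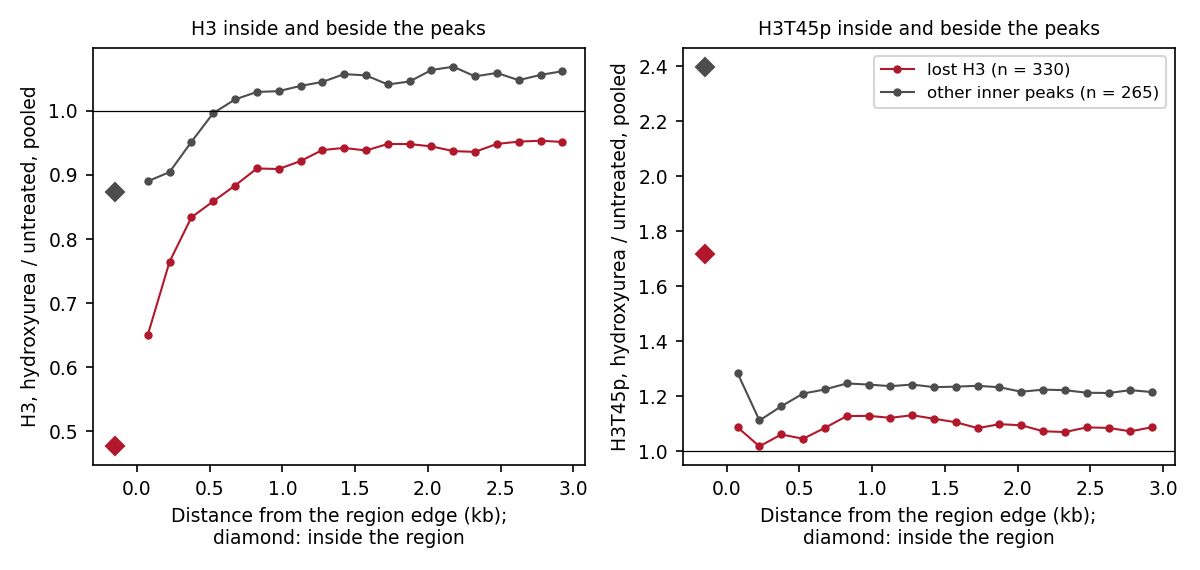
Pooled ratio of H3 (left) and of H3T45p (right), hydroxyurea over untreated, inside the regions (diamonds) and in 150 bp windows by distance from the region edge in kb, both sides together, for the 330 peaks that lost H3 and the other 265 inner peaks. H3 beside the 330 regions climbs from 0.650 next to the edge to 0.939 at 1200 to 1350 bp. H3T45p is 1.72 inside, where the peak call favours it, and 1.02 to 1.13 beside the regions.

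Region by region, the flanks from 150 to 600 bp had a median H3 ratio of 0.823 beside the 330 regions and 0.958 beside the other inner peaks. It was below 1 at 287 of the 330 (87.0%, 82.9 to 90.4%) and at 157 of 265 (59.2%, 53.1 to 65.2%). Taken as sides of 3 windows, 125 of 613 sides (20.4%, 17.3 to 23.8%) were at or below 0.7 beside the regions and 30 of 517 (5.80%, 3.95 to 8.18%) beside the other peaks. Of all runs of 3 inner windows outside peaks, 6.49% were. Among the 286 regions with both sides measured, 65 had such a loss on 1 side and 25 on both sides, and 196 on neither. The lower of both sides had a median of 0.762 and the higher 0.904, and the left and right sides had 0.834 each. Left and right follow the files' coordinates, not genes or forks, so equal medians cannot speak to direction at single loci. The untreated flanks held more H3 than the region itself at 288 of the 330, with a median of 369 beside and 130 inside. The same held at 259 of the other 265 inner peaks, with medians of 341 beside and 59.6 inside. Such a dip in untreated H3 was thus not particular to the 330 regions.

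Flanks differed between regions with a similar loss inside. Beside the region at chromosome 10 from 195151 the flank ratio of H3 was 1.04, and beside that at chromosome 5 from 298201 it was 1.10, although H3 inside was at 0.191 and 0.230. Beside the region at chromosome 2 from 341551 it was 0.432, the lowest of all 330, and H3T45p in that flank was at 0.873. At the loci on chromosomes 10 and 5 the flanks thus kept their H3, while at the chromosome 2 locus they had lost it as well.

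Some regions stood in runs. With gaps of at most 1500 bp, 48 regions formed 23 runs, and the other 282 stood alone. The median gap between neighbouring regions was 22200 bp. In 14 of the 23 runs the windows between the regions, which belong to no peak, also had an H3 ratio at or below 0.7. Such windows lie close to a region. Beside all the regions together the pooled H3 ratio was 0.650 in the first 150 bp and 0.765 from 150 to 300 bp. No trait of runs is therefore read from this count. The run at chromosome 2 from 341551 to 342450 had 2 regions, and H3 in its 2 windows between them was 176 in hydroxyurea, against 476 in untreated cells. The run at chromosome 7 from 271501 to 272250 had H3 of 666 in hydroxyurea, against 1651 in untreated cells in the window between its 2 regions. A run of 3 regions lay at chromosome 11 from 516751 to 518850, with H3 of 95.4 in hydroxyurea, against 184 in untreated cells between them. In these 3 runs H3 was lower in hydroxyurea across the gap as well. The run at chromosome 10 from 195151 to 197250 was unlike them, with H3 of 364 in hydroxyurea, against 340 in untreated cells in the 8 windows between its regions.

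The surroundings of the regions had slightly less H3 in hydroxyurea too. Over the 10 kb on each side, leaving out 1500 bp next to the region and all peaks, the median H3 ratio was 0.938 around the 330 regions and 1.05 around the other inner peaks. Divided by that of its surroundings, the median H3 ratio was 0.547 in the 330 regions and 0.847 in the other peaks, and the median H3T45p ratio was 1.59 and 1.82. By this local measure 281 of the 330 stayed at or below 0.7, and 37 of the other peaks came under it. Among the 199 inner peaks with a surrounding H3 ratio of 0.678 to 0.9247, 141 belonged to the 330 (70.9%, 64.01 to 77.1%). Among the 198 at 0.9249 to 1.048 they were 123 (62.1%, 54.97 to 68.9%), and among the 198 at 1.050 to 1.35 they were 66 (33.3%, 26.8 to 40.4%). The part of the surroundings in the choice of regions was not tested beyond this.

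The share of inner peaks that lost H3 also varied between chromosomes. It was highest on chromosome 12, with 36 of 49 (73.5%, 58.9 to 85.1%), and on chromosome 4, with 45 of 71 (63.4%, 51.1 to 74.5%). It was lowest on chromosome 6, with 2 of 11 (18.2%, 2.28 to 51.8%), and was 35.0% on chromosome 9 and 36.4% on chromosome 3. H3 outside peaks was 0.925 and 0.936 of untreated on chromosomes 12 and 4, and 1.03, 1.02 and 1.05 on chromosomes 6, 9 and 3. Other chromosomes went against this order, as chromosome 8 had a share of 45.8% at an H3 ratio of 0.929 and chromosome 10 a share of 58.1% at 1.03. Over the 16 chromosomes the share and the H3 ratio outside peaks had a Spearman correlation of -0.588, with both measured in the same H3 libraries and with wide intervals where peaks were few. Per length, the regions ran from 0.870 per 100 kb on chromosome 6 to 3.71 on chromosome 7, with 2.89 over all.

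**Figure D5:**
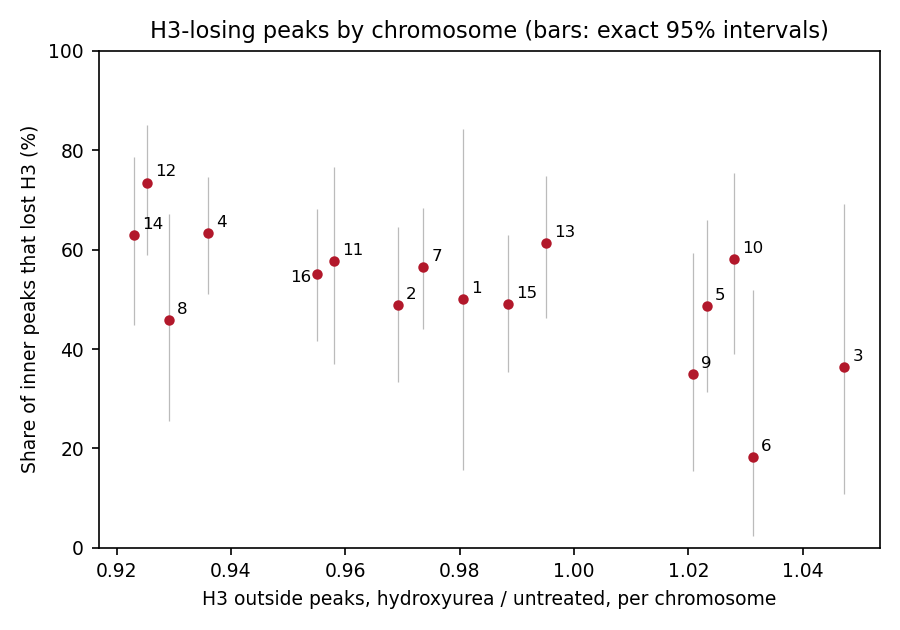
Share of inner hydroxyurea peaks that lost H3 (%, with exact 95% intervals as bars) against the H3 ratio outside peaks, hydroxyurea over untreated, 1 point per chromosome with its number. Chromosomes 3, 6 and 9, with H3 ratios of 1.05, 1.03 and 1.02, have shares of 36.4%, 18.2% and 35.0%, and chromosome 12, at 0.925, has 73.5%, while chromosomes 8 and 10 lie against this order with 45.8% at 0.929 and 58.1% at 1.03.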

How the data were processed

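Signal in 150 bp windows was deposited by the authors for each of the 4 libraries, as was a list of peak positions without scores for each H3T45p library. The submitters' processing notes list BWA (0.5.9-r16) and DESeq without saying what each was used for. Neither the rule behind the peak lists nor the name of the build was found in the sources used here. All deposited signal values were whole multiples of a library's smallest step (100% within 0.001 of a read), and whole reads were recovered from them. The authors' 1 factor per library sets a relative scale, and total H3T45p per cell is not measured.

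From these values the mean signal per region, its ratios, and exact binomial (Clopper-Pearson) 95% intervals on the recovered reads and on shares of regions were computed with Python 3.11.15, numpy 2.4.6, pandas 2.3.3 and SciPy 1.17.1. No pseudocount was added. No count model was run, since 1 library per group leaves no residual degrees of freedom. The choice rule and intervals were checked on simulated reads. Named regions are the 10 with the lowest H3 ratio, the 10 with the most untreated H3, the 5 widest with ties, the neighbours of the threshold, and up to 10 with an untreated peak. The regions with lower H3T45p, the runs, and those named for their flank were chosen after their values were seen. The members and lists were chosen with earlier results of these data known. Gene lists planned for these regions were not run, as regions were not placed on genes. The authors' difference tracks were not used. Alternatives are in the closing section.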

Additional observations from a re-analysis of the deposited data

How the results depend on the processing

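No paired analysis was possible because the groups compared share fewer than 2 replicate numbers and no result comes from a test. The 330 regions became 224 at a threshold of 0.6, 414 at 0.8, 335 and 324 at 10 and 40 kb from the ends, 295 scaled by total reads, 327 by the median window, 297 with 50 or more untreated H3 reads, 262 with H3T45p at least 3 times H3 in hydroxyurea, and 318 relative to the surrounding 10 kb. The last setting, and leaving out the region of highest H3 (329), were chosen after seeing the data. The median H3T45p ratio of 1.72 was 1.57 and 1.76 at the thresholds 0.6 and 0.8, 1.52 scaled by total reads, 1.76 with stricter peaks and 1.60 with 10% of the genome median added as a pseudocount. The untreated H3T45p over H3 ratio of 1.18 was 1.11 and 1.24 at those thresholds, 1.26 scaled by total reads, 1.13 with the read minimum, 1.28 with stricter peaks, 1.14 with the pseudocount and 1.16 relative to the surroundings. The share with an untreated peak was 3.125% at 0.6 and 3.64% at 50% overlap. The flank H3 ratio of 0.823 was 0.794 and 0.838 at those thresholds, 0.838 scaled by total reads, 0.877 out to 1500 bp and 0.849 relative to the surroundings. No ratio turned its direction in these settings, and the median width stayed at 300 bp. Scaling by total reads shifts H3 by 0.05 and the untreated H3T45p over H3 ratio by 0.14 on the log2 scale. Depth limits the narrowest regions, the smallest of which had 10 H3 reads in hydroxyurea.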

Other observations

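Peaks on either side of the H3 threshold stood close together in places. Of the 330 regions, 28 (8.48%) had another inner hydroxyurea peak within 1500 bp that did not reach the H3 threshold. On chromosome 3 the region from 228601 to 228900 had an H3 ratio of 0.338 (95% interval 0.303 to 0.376), and the nearby peak from 227851 to 228000 had 0.701 (0.471 to 1.04).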
